A study of Mus musculus with 16 samples.

Results

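Succinate was given to mice in a heart failure model that joins a high-fat diet with a blocker of nitric oxide synthases. It went with higher levels of genes for burning fat and branched-chain amino acids. Genes that control the entry of pyruvate into the TCA (tricarboxylic acid) cycle also rose, but with opposing roles among them. Genes for mechanical stress, protein folding and the cytoskeleton were at lower levels. The comparison set 4 hearts from Gpr91fl/fl mice given succinate on top of the 2-Hit HFpEF model against 4 Gpr91fl/fl hearts with the model alone. These are 8 of the 16 samples of the series, chosen by their labels, and 14607 of the 24371 genes in the table had enough counts to be tested. Both groups carried the floxed alleles of Gpr91 (current symbol Sucnr1, the receptor for extracellular succinate) and no Cre. Both also received the same model, 12 weeks of high-fat diet and of L-NAME, which blocks nitric oxide synthases. The other 8 hearts, from Myh6Cre Gpr91fl/fl mice, carry a Cre that the Myh6 promoter drives in cardiomyocytes, and received the same 2 treatments. Age, sex and succinate dose are not given in the sources used here, no heart without the model is among the samples, and the labels do not say that samples came from separate animals, which leaves the p-values a measure of sample-to-sample spread only.

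Succinate is an intermediate of the mitochondrial tricarboxylic acid (TCA) cycle and, outside the cell, a ligand of the G protein-coupled receptor that Gpr91 encodes. A healthy adult heart draws most of its energy from fatty acids, under nuclear receptors of the PPAR family that induce the enzymes for fat uptake and oxidation, while a pressure- or diet-stressed heart turns on fetal contractile genes, natriuretic peptides and chaperones. HFpEF, heart failure with preserved ejection fraction, combines metabolic and haemodynamic load, and its 2-hit mouse model was built to join the pair.

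The 8 libraries held 27835235 to 33120930 counts, 18038 to 18376 genes had at least 1 count, and 23.5% to 27% of the counts came from mitochondrially encoded genes. All 10 cardiomyocyte markers were detected in every heart, at a sum of 52134 to 60360.5 CPM (counts scaled by the library total) in untreated hearts and 58219 to 68477 CPM in succinate hearts. These markers include Myh6, which was higher with succinate in the test below (log2 fold change 0.69 ± 0.13), so the sums partly repeat that result. The first principal component of the 8 hearts (35.9% of the variance) placed all untreated hearts below 0 and all succinate hearts above 0. The second (18%) set heart 4 of each group apart, at -32.6 and -28.2, from the other 6 hearts, between -6.60 and 19.2. Sucnr1 had 0, 4, 1 and 1 counts in untreated hearts 1 to 4 and 5, 2, 7 and 0 in succinate hearts 1 to 4, too few to be tested with the other genes. Its mean was 0.0487 ± 0.0541 and 0.111 ± 0.0981 CPM (SD, n = 4 each), against 0.0906 to 0.108 CPM for 3 counts in 1 library, and a two-sided exact permutation test of the difference gave p = 0.343 (smallest possible 0.0286).

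In the edgeR quasi-likelihood test at a Benjamini-Hochberg adjusted p of 0.05, 1917 of 14607 genes passed (13.1%), of which 1093 rose (7.48% of those tested) and 824 fell (5.64%). "Rose" and "fell" below refer to this test, fold changes are log2 of succinate over untreated hearts with their standard error (SE, n = 4 per group), and the CPM shown are not part of the fit. Of the genes that passed, 307 changed at least 2-fold (167 higher, 140 lower), 47 at least 4-fold (23 and 24) and 14 at least 8-fold (6 and 8). The median change over all tested genes was 0.00 and 50.3% of them were above 0. In 1523 of the 1917 genes that passed, the CPM of the groups did not overlap. Over all tested genes, every succinate heart was above every untreated heart in 7.32%, and below in 10.1%. A lack of overlap named below for a gene that passed is a description, since most such genes share it. Genes that rose took 7.58% to 8.75% of the counts of each untreated heart and 10.2% to 12.6% of each succinate heart. Genes that fell took 6% to 7.06% and 3.79% to 4.28%. As a description only, since the contrast itself chose these genes, those that rose stood 0.75, 0.59, 0.73 and 0.59 above the untreated mean (mean log2) in succinate hearts 1 to 4, and those that fell stood at -0.77, -0.58, -0.70 and -0.70. With 1 heart left out the number passing was 1018 to 1989, and it dropped more than 1.5 times below the full count without untreated heart 1 (1150) or 3 (1079) or succinate heart 1 (1018) or 3 (1071). Without heart 4 of both groups, a fit added after the data were seen, 1581 passed. Among genes named below, Adamts5, Atf3, Azin1, Ccn3, Col22a1, Col4a5, Col6a3, Etfa, Hspa1a, Hspa1b, Itgb1bp2, Kcnd2, Kcnj2, Klhl34, Myh7b, ND6, Nos3, Rpl3l, S100a8 and S100a9 did not pass in that fit. Scaling by library totals alone, also added afterwards, or testing log2 FPKM, which the authors scaled the same way, turned the share of higher genes from 57.0% to 45.4% (library totals) and to 47.2%, 45.9% and 43.3% (FPKM with a pseudocount of 1, of 0.1, and with a mean FPKM of at least 1). No gene that passed changed sign under any of these settings.

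**Figure D1:**
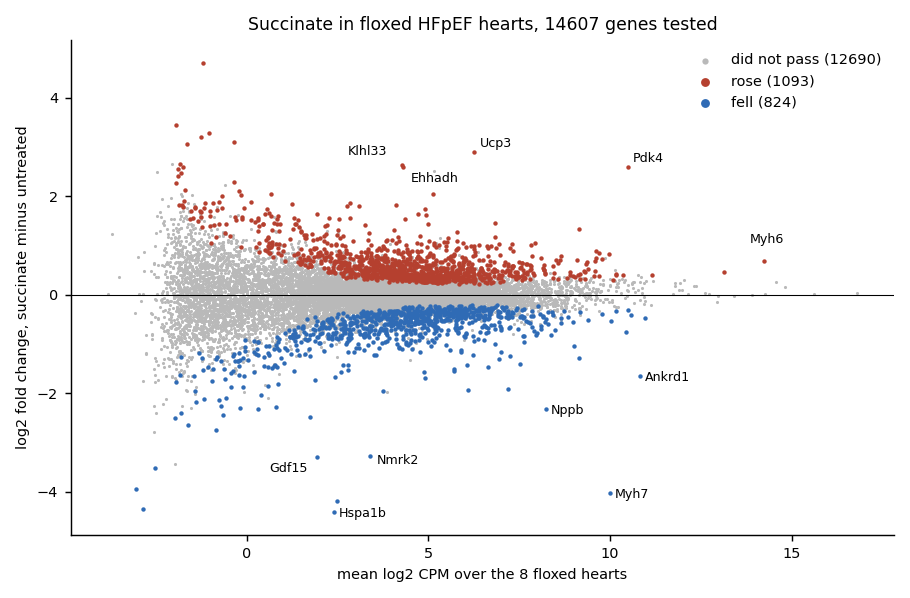
Each point is 1 of the 14607 tested genes, with its mean log2 CPM over the 8 floxed hearts on the horizontal axis and its log2 fold change, succinate minus untreated, on the vertical axis; red points rose, blue points fell and grey points did not pass the edgeR test. Myh7, Hspa1b and Gdf15 lie among the lowest labelled points, and Ucp3, Klhl33 and Pdk4 among the highest.

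The genes with the smallest p included regulators of RNA and chromatin. Xrn2, a nuclear exonuclease that acts in transcription termination, was at 22.7, 26.8, 24 and 27.1 CPM in untreated hearts 1 to 4 and 48.7, 49.2, 55.5 and 44.2 CPM in succinate hearts 1 to 4, and rose by 1.02 ± 0.09 (edgeR adjusted p = 2.2e-05). H1f2, a linker histone gene, was at 40.6, 38.5, 37.4 and 36.5 CPM in untreated hearts 1 to 4 and 69.2, 95, 71.8 and 81.4 CPM in succinate hearts 1 to 4, and rose by 1.10 ± 0.11. Cited2, a coactivator-binding transcriptional regulator, was at 16.4, 19.9, 18.9 and 15.5 CPM in untreated hearts 1 to 4 and 53.3, 45.3, 62.4 and 48.5 CPM in succinate hearts 1 to 4, and rose by 1.62 ± 0.16. None of these 3 genes overlapped between the groups. Trmt5, a tRNA methyltransferase, and Pnpla7, a lysophospholipase, rose by 0.97 ± 0.10 and 1.08 ± 0.12. Lmo2, a LIM-domain partner of haematopoietic and endothelial transcription factors, fell by 0.81 ± 0.09, from 35.8, 33.6, 39.8 and 32.8 CPM in untreated hearts 1 to 4 to 17.9, 21.2, 18 and 21.1 CPM in succinate hearts 1 to 4. The calls for these genes held with any 1 heart left out.

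Many genes of mechanical load fell, and of the fetal programme the heavy chain Myh7 and the natriuretic peptides Nppa and Nppb did. Of 20 tested genes of the cardiac stress and stretch response, 13 fell, 0 rose and 7 did not pass, and the median was -0.71 against 0.00 over all genes. Leaving out each heart in turn gave 11 to 13 that fell. Myh7, the slow myosin heavy chain, was at 5169, 5358, 5706 and 1446 CPM in untreated hearts 1 to 4 and 291, 248, 236 and 265 CPM in succinate hearts 1 to 4. Untreated heart 4 was lowest of its group, yet still above every succinate heart, and Myh7 fell by 4.03 ± 0.44 (edgeR adjusted p = 0.000106). Myh6, the fast heavy chain of the adult mouse ventricle, was at 14706, 18589, 14736 and 13292 CPM in untreated hearts 1 to 4 and 24408, 24708, 26988 and 19543 CPM in succinate hearts 1 to 4, without overlap, and rose by 0.69 ± 0.13. On the authors' FPKM scale, which divides by gene length, Myh7 made up 25.2%, 21.6%, 27% and 9.43% of the 2 heavy chains together in untreated hearts 1 to 4 and 1.13%, 0.952%, 0.83% and 1.28% in succinate hearts 1 to 4, a description with no test, since both genes had already separated the groups. Reads of these neighbouring, similar genes could be split by the counting. Mhrt, a non-coding RNA antisense to Myh7, rose by 1.02 ± 0.10, from 26, 28.4, 29.1 and 27.2 CPM in untreated hearts to 58.3, 50.6, 60.5 and 47.4 CPM in succinate hearts; no source states whether strand was used in counting, and without it reads of the pair cannot be told apart.

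The natriuretic peptides and stretch-responsive genes fell as well. Nppb, the B-type natriuretic peptide that ventricles release under load, was at 741, 413, 708 and 939.6 CPM in untreated hearts 1 to 4 and 86.1, 138, 197 and 127 CPM in succinate hearts 1 to 4, and fell by 2.32 ± 0.30. Nppa, the atrial peptide, was at 388, 182, 466 and 171 CPM in untreated hearts 1 to 4 and 90.2, 77.2, 63.4 and 77.6 CPM in succinate hearts 1 to 4, and fell by 1.92 ± 0.44. The 9 atrial markers, Nppa among them and 6 of them tested, summed to 229.9 to 547 CPM in untreated and 147 to 181 CPM in succinate hearts. Nppa is itself a large part of these sums, so they partly repeat its fall. It was the only 1 of the 6 to pass (median -0.18, 2 changes above 0 and 4 below). The part of atrial tissue in the Nppa result was not tested. In bulk RNA, fewer cells of a type and less RNA per cell cannot be told apart. Ankrd1, a stretch-sensing ankyrin repeat protein of the sarcomere, was at 3818, 2655, 3839 and 2643 CPM in untreated hearts 1 to 4 and 1085, 882, 951 and 1064 CPM in succinate hearts 1 to 4, and fell by 1.65 ± 0.17. Its relative Ankrd23 fell by 1.29 ± 0.14. Xirp2, an actin-binding protein of the intercalated disc, fell by 1.05 ± 0.21, and Tnfrsf12a, the receptor for the cytokine TWEAK, fell by 1.92 ± 0.28. Gdf15, a secreted stress hormone, was at 14.7, 3.82, 11.4 and 21.9 CPM in untreated hearts 1 to 4 and 1.03, 1.66, 1.51 and 0.934 CPM in succinate hearts 1 to 4, and fell by 3.29 ± 0.43 (edgeR adjusted p = 0.000326). In none of Nppb, Nppa, Ankrd1 and Gdf15 did the groups overlap. Of 17 contractile isoforms tested, 1 rose (Myh6) and 2 fell, Myh7 and the slow-type heavy chain Myh7b (-0.77 ± 0.20). The median of that list was -0.01, with 8 changes above 0 and 9 below. The share that passed was 17.6%, against 13.1% of all tested genes. Acta1, the skeletal-type actin, did not pass (-0.44 ± 0.32, edgeR adjusted p = 0.396).

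**Figure D2:**
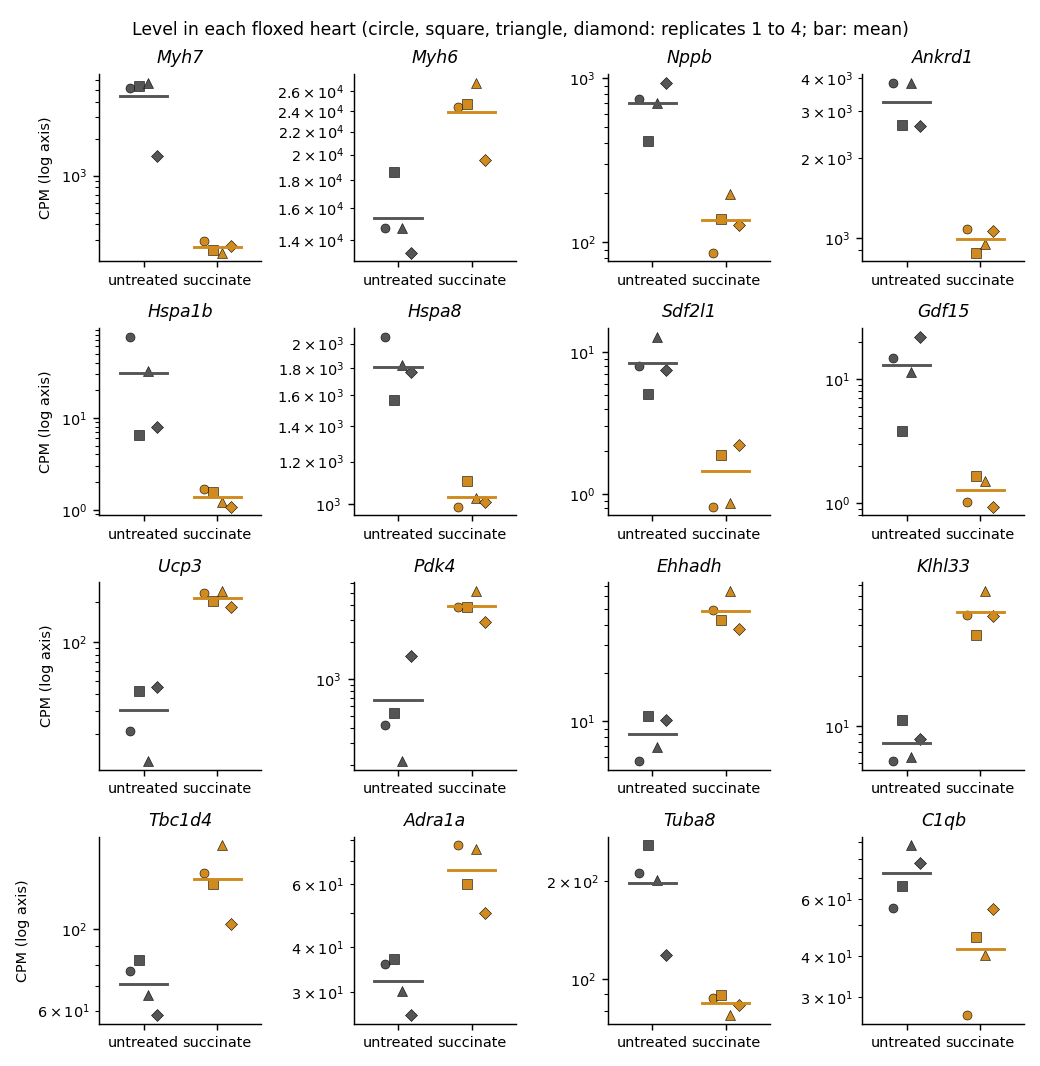
Level of 16 genes in each floxed heart, in CPM on a log axis; grey symbols are untreated hearts, orange symbols succinate hearts, the symbol shape gives the replicate number and the bar the group mean. The groups do not overlap in any of the 16 panels, and untreated heart 4 stands apart from the other untreated hearts for Myh7 and Pdk4.

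A group of cytosolic chaperone genes fell with succinate. Heat shock factor HSF1 induces these genes by binding repeats of the block GAA, in alternating orientation, in their promoters, and the promoter stretches of members that fell are shown for those blocks. The letters GAANNTTC and TTCNNGAA (each its own reverse complement, N any base) were sought in the 250 bases before each start in RefSeq's GRCm38.p6 promoters, and 80 bases around the match are printed 5′ to 3′ on the gene's strand, with matches in capitals.
Hspa1a (chr17:34972217-34972296, minus strand) and Hspa1b (chr17:34959299-34959378, minus strand), the same letters in both: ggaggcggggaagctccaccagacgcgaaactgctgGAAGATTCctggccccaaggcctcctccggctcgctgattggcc
Hsph1 (chr5:149636326-149636405, minus strand): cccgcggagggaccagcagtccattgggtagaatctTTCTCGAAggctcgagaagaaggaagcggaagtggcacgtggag
Dnaja1 (chr4:40722308-40722387, plus strand): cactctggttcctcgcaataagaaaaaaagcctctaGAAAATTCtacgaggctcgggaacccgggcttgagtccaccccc
Dnaja4 (chr9:54699449-54699528, plus strand): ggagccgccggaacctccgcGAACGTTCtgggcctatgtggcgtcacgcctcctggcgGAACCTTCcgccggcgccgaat
Hspb1 (chr5:135887774-135887853, plus strand): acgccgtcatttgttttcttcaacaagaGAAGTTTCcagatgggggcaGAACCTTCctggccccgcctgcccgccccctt
Of the 19 chaperone genes that fell, 15 had a RefSeq promoter in the table, 21 promoters in all, and 7 of these (33.3%; 6 genes, those printed) held a match, against 12.8% of all 32851 promoters and 10.4% of the 14772 promoters of tested genes. Dnaja4 and Hspb1 each held 2 matches. Hspa1a and Hspa1b, neighbouring copies that encode the inducible HSP70, differed at 3 of the 250 bases.

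Of 37 tested heat shock genes 19 fell and 1 rose (5.64% and 7.48% over all genes), with a median of -0.42. Between the fits that omit a heart, the count that fell was 10 to 20 (11 without untreated heart 1, 12 without untreated heart 3 and 10 without succinate heart 1). Hspa1b was at 76.3, 6.56, 32 and 7.88 CPM in untreated hearts 1 to 4 and 1.69, 1.55, 1.22 and 1.08 CPM in succinate hearts 1 to 4, so all untreated hearts lay above all succinate hearts, with untreated hearts 1 and 3 highest. It fell by 4.41 ± 1.25 (edgeR adjusted p = 0.0356), a call that was lost without untreated heart 1 or 3 or succinate heart 1, 2, 3 or 4 (edgeR adjusted p between 0.0642 and 0.0974). Hspa1a fell by 4.18 ± 1.13, but reads of these near-identical copies cannot be assigned with confidence, and its call was lost without untreated heart 1 or 3 or succinate heart 1, 2, 3 or 4 (edgeR adjusted p between 0.053 and 0.0817). Hspa8, the constitutive HSC70, was at 2060.1, 1564, 1823 and 1768 CPM in untreated hearts 1 to 4 and 987, 1103, 1025 and 1008 CPM in succinate hearts 1 to 4, and fell by 0.76 ± 0.12. Hspa1l, a testis-type HSP70, fell by 1.52 ± 0.18, and the cochaperone Dnaja4 by 0.67 ± 0.08. Dnaja1, another HSP40 cochaperone, was at 155, 75.2, 128 and 90.6 CPM in untreated hearts 1 to 4 and 39.4, 46.6, 35 and 40.6 CPM in succinate hearts 1 to 4, and fell by 1.43 ± 0.33. The nucleotide exchange factor Hsph1 fell by 1.54 ± 0.36 (lost without succinate heart 1, edgeR adjusted p = 0.0531). The small heat shock proteins Hspb8, Hspb7 and Cryab, which hold muscle proteins in a foldable state, fell by 0.55 ± 0.08, 0.48 ± 0.11 and 0.42 ± 0.10; the Cryab call was lost without succinate heart 1 (edgeR adjusted p = 0.0548). The single member that rose was Hspa9, the mitochondrial HSP70, by 0.32 ± 0.08 (lost without succinate heart 3, edgeR adjusted p = 0.0638).

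Folding enzymes of the endoplasmic reticulum fell as well: 13 of 31 fell, 2 rose, and the median was -0.23. When single hearts were omitted, 11 to 15 fell. Sdf2l1, a component of the reticulum's HSP70 complex, was at 8.04, 5.05, 12.9 and 7.47 CPM in untreated hearts 1 to 4 and 0.815, 1.89, 0.869 and 2.23 CPM in succinate hearts 1 to 4, and fell by 2.48 ± 0.46. Pdia6, a disulfide isomerase, was at 113, 109, 114 and 91.2 CPM in untreated hearts 1 to 4 and 47, 61, 50.9 and 55.6 CPM in succinate hearts 1 to 4, and fell by 0.94 ± 0.13. Both separated the groups without overlap. The calcium-binding chaperone Calr fell by 0.82 ± 0.13 and the secreted factor Manf by 1.16 ± 0.22. Herpud1, which serves degradation of misfolded proteins, went the other way, from 176, 146, 209 and 182 CPM in untreated hearts to 329, 271, 339.8 and 253 CPM in succinate hearts, and rose by 0.79 ± 0.12. The second member that rose was the stress sensor Ern1 (0.49 ± 0.15; lost without untreated heart 1, 2, 3 or 4 or succinate heart 1, 2 or 3, edgeR adjusted p between 0.0519 and 0.179). The letters TGACGTGG, the core of the ATF6 site, sought on both strands, were in 0 of the 11 promoters matched to the 13 genes that fell and in 0.563% of all promoters. With letters this rare, 11 promoters would most often hold none, so the 0 says nothing about these genes.

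In the integrated stress response, through which ATF4 and its partners answer amino acid shortage and mitochondrial damage, 6 of 27 genes fell, 2 rose, and the median was -0.30. The number that fell was 4 to 7 over the fits without a heart. Besides Gdf15, those that fell included Ddit3, the transcription factor CHOP (-0.89 ± 0.15), and Atf3 (-1.96 ± 0.55). Atf3 was at 45.7, 15.4, 24.3 and 33 CPM in untreated hearts 1 to 4 and 5.31, 10.1, 11.2 and 3.05 CPM in succinate hearts 1 to 4; its call was lost without untreated heart 1, 3 or 4 or succinate heart 1 or 4 (edgeR adjusted p between 0.0531 and 0.105). Pycr1, an enzyme of proline synthesis, was at 1.86, 1.51, 1.87 and 1.43 CPM in untreated hearts 1 to 4 and 0.604, 1.15, 0.708 and 0.431 CPM in succinate hearts 1 to 4, and fell by 1.16 ± 0.28. Vldlr, a lipoprotein receptor, and Gpt2, a mitochondrial alanine transaminase, rose by 0.70 ± 0.16 and 0.68 ± 0.15. The letters TGATGNAA, the core of the site bound by C/EBP-ATF dimers, were sought on both strands; they were in 2 of 8 promoters of the members that fell (25%; Atf3 and Pycr1) and in 3.45% of all promoters. Both stretches are printed, with the match in capitals, since they are the members that held one.
Atf3 (chr1:191183399-191183478, minus strand): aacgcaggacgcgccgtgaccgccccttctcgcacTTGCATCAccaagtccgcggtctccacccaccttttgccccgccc
Pycr1 (chr11:120643809-120643888, minus strand): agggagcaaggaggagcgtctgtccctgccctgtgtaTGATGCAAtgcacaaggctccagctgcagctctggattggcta

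Genes of fatty acid use rose at several steps of the path. In mitochondrial beta-oxidation 13 of 25 genes rose, 0 fell, and all 25 changes were above 0 (median 0.36). Omitting any 1 heart left 6 to 12 that rose (7 without untreated heart 1, 6 without untreated heart 3, 7 without succinate heart 1, 8 without succinate heart 2 and 7 without succinate heart 3). At the entry step, Cpt1a, which couples fatty acids to carnitine, was at 51.7, 66, 47.1 and 68.6 CPM in untreated hearts 1 to 4 and 107, 99.1, 100.3 and 81.1 CPM in succinate hearts 1 to 4, and rose by 0.78 ± 0.14. Etfdh, which passes electrons from fat oxidation to ubiquinone, was at 513, 576, 493 and 525 CPM in untreated hearts 1 to 4 and 823, 783, 811 and 739 CPM in succinate hearts 1 to 4, and rose by 0.63 ± 0.13. Acad11 and Cpt2 rose by 0.58 ± 0.11 and 0.59 ± 0.11. Mlycd, which removes the CPT1 inhibitor malonyl-CoA, rose by 0.95 ± 0.22, while Acacb, which makes malonyl-CoA at the mitochondrial surface, rose too, by 0.78 ± 0.16. Among 17 genes of uptake and activation 5 rose, led by the transporter Slc27a1 (1.01 ± 0.15) and the acyl-CoA synthetase Acsl1 (0.74 ± 0.15), and 1 fell, the synthetase Acsl5 (-0.54 ± 0.12). With 1 heart left out at a time, 4 to 7 rose.

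Peroxisomes shorten very long and branched acyl chains before mitochondria take over. Of 27 peroxisomal enzymes 10 rose and 0 fell (median 0.24). Leaving out each heart in turn gave 7 to 10 that rose. Ehhadh, the bifunctional enzyme of peroxisomal beta-oxidation, was at 5.65, 10.7, 6.88 and 10.2 CPM in untreated hearts 1 to 4 and 49.2, 42.5, 64.8 and 37.6 CPM in succinate hearts 1 to 4, and rose by 2.58 ± 0.32 (edgeR adjusted p = 0.000261). Abcd3, a transporter of acyl-CoA into the organelle, was at 91.5, 116, 85.1 and 92.2 CPM in untreated hearts 1 to 4 and 177, 160.4, 158 and 154 CPM in succinate hearts 1 to 4, and rose by 0.81 ± 0.11. The groups did not overlap for either. Hsd17b4, the second bifunctional enzyme, rose by 0.53 ± 0.08, the NADH pyrophosphatase Nudt12 by 0.73 ± 0.10 and catalase, Cat, by 0.45 ± 0.11. Of the 18 peroxisome biogenesis genes 2 rose (11.1%, against 7.48% of all tested genes), Pxmp4 by 0.77 ± 0.14 and Pex16 by 0.41 ± 0.13. The Pex16 call was lost without untreated heart 1, 2 or 3 or succinate heart 1, 2, 3 or 4 (edgeR adjusted p between 0.0616 and 0.181). All 18 changes were above 0. The letters AGGNCAAAG, the core of a PPAR response element, were sought on both strands and were in 1 of the 20 promoters (5%; Etfa) of members of the peroxisomal and mitochondrial oxidation lists that rose, and in 1.8% of all promoters. The Etfa call was lost with any 1 heart left out (edgeR adjusted p between 0.058 and 0.15).

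Some uncoupling and thioester-cleaving genes rose. Of 12 tested 4 rose and 0 fell. Between the fits that omit a heart, the count that rose was 3 to 4. Ucp3, an inner-membrane carrier of muscle, was at 21.1, 42.3, 12.4 and 45.6 CPM in untreated hearts 1 to 4 and 235, 207, 245 and 185 CPM in succinate hearts 1 to 4, and rose by 2.89 ± 0.53. The thioesterases Acot1, Acot2 and Acot3, neighbouring paralogs that free fatty acids from coenzyme A, rose by 2.05 ± 0.54, 1.45 ± 0.31 and 1.73 ± 0.34, with reads that could be split between them; the Acot1 call was lost without untreated heart 1 or 3 or succinate heart 1 or 3 (edgeR adjusted p between 0.0502 and 0.0732). Acot2 was at 62.2, 76.7, 52.5 and 90.4 CPM in untreated hearts 1 to 4 and 187, 201, 203 and 157 CPM in succinate hearts 1 to 4. Stored fat was represented by 21 genes of lipid droplets and lipases, of which 9 rose and 1 fell (median 0.32). When single hearts were omitted, 7 to 9 rose. Gpam, the first acyltransferase of triglyceride synthesis, was at 169.5, 180.0, 156 and 188 CPM in untreated hearts 1 to 4 and 403, 306, 422 and 265 CPM in succinate hearts 1 to 4, and rose by 1.06 ± 0.17. The lipases Lipe and Pnpla2 rose by 1.01 ± 0.18 and 0.70 ± 0.13, and G0s2, the inhibitor of the Pnpla2 lipase, was the member that fell, by 1.10 ± 0.21, from 38.1, 42.5, 36.9 and 24.4 CPM in untreated hearts to 17, 15.7, 10.2 and 20.6 CPM in succinate hearts. Ucp3, Acot2, Gpam and G0s2 did not overlap between the groups. Angptl4, a lipoprotein lipase inhibitor of the uptake list, was at 8.7, 9.62, 6.05 and 48.5 CPM in untreated hearts 1 to 4 and 102, 118, 123 and 66 CPM in succinate hearts 1 to 4; although the groups did not overlap, untreated heart 4 stood far above its group's other hearts and the gene did not pass (2.52 ± 0.80, edgeR adjusted p = 0.0549).

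**Figure D3:**
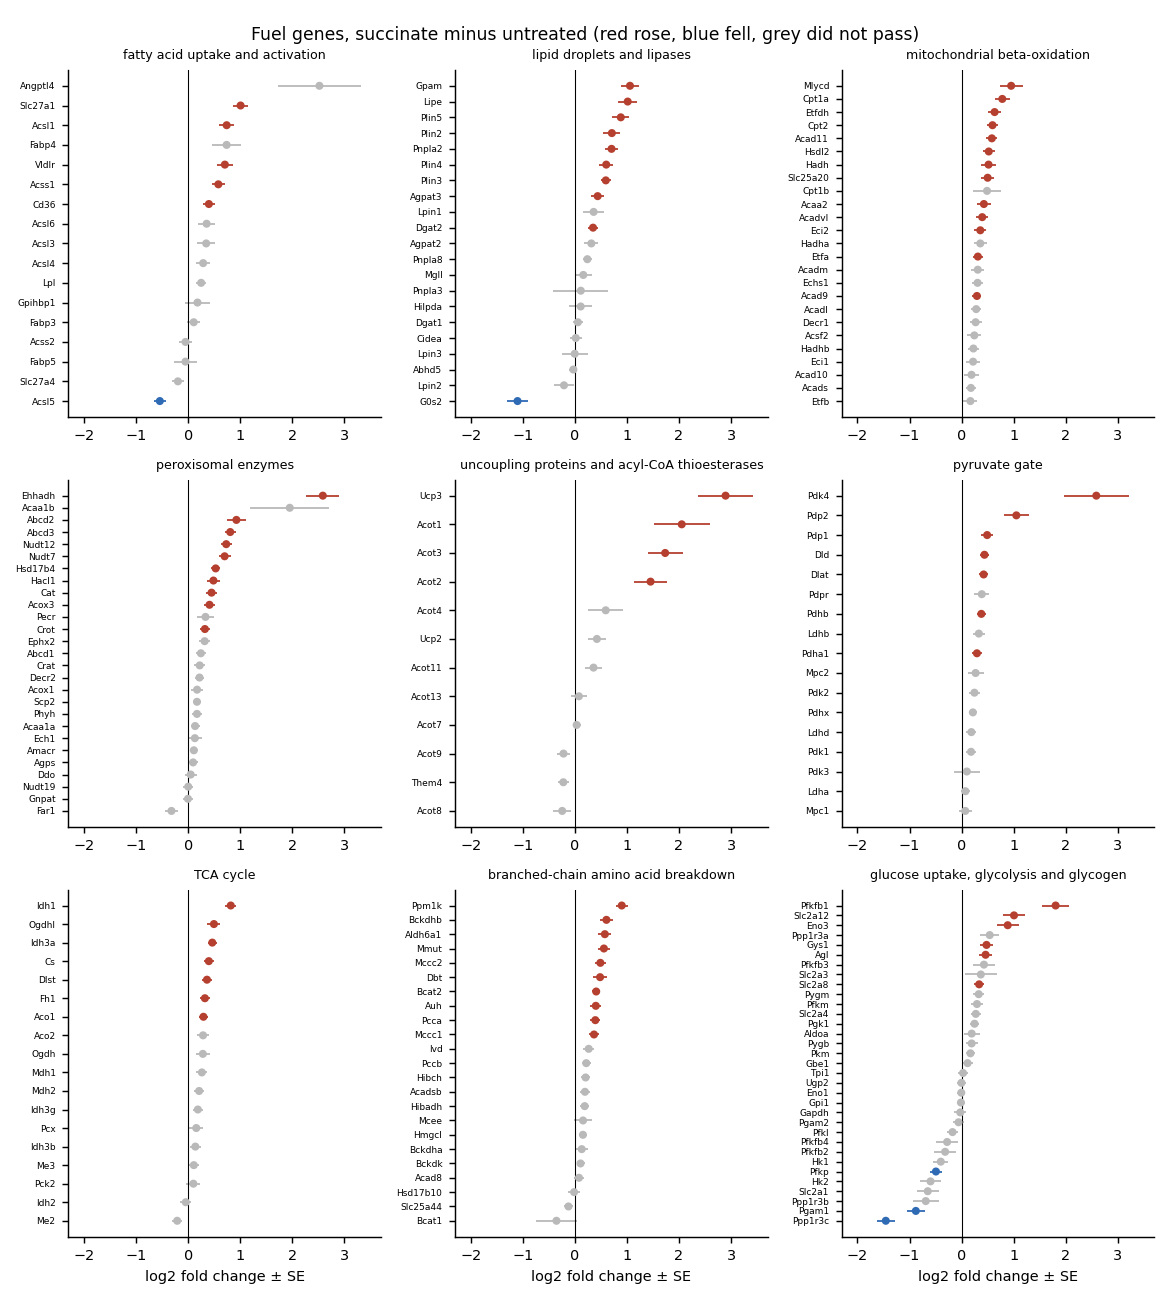
Log2 fold change with SE for every tested member of 9 fuel lists; red members rose, blue members fell and grey members did not pass. Beta-oxidation, the pyruvate gate and branched-chain amino acid breakdown hold no blue point, while glucose and glycogen genes lie on both sides of 0.

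At the pyruvate gate, the step at which pyruvate dehydrogenase commits carbon from glucose to the TCA cycle, 7 of 17 genes rose, 0 fell, and all 17 changes were above 0 (median 0.29). The number that rose was 5 to 6 over the fits without a heart. Members with opposing roles rose together. Pdk4, the kinase that switches the complex off, was at 421, 527, 215 and 1523 CPM in untreated hearts 1 to 4 and 3814, 3871, 5185 and 2878 CPM in succinate hearts 1 to 4; untreated heart 4 was highest of its group and below every succinate heart. Pdk4 rose by 2.58 ± 0.63 (edgeR adjusted p = 0.0174), a call lost without untreated heart 1 (edgeR adjusted p = 0.0567). Pdp2, a phosphatase that switches the complex on, was at 11.3, 18.5, 14.1 and 6.21 CPM in untreated hearts 1 to 4 and 26.1, 22.2, 30.4 and 21.3 CPM in succinate hearts 1 to 4, without overlap, and rose by 1.05 ± 0.24. The complex's own subunits Dlat, Pdhb and Dld rose by 0.42 ± 0.08, 0.38 ± 0.09 and 0.44 ± 0.09. Among 18 TCA cycle genes 7 rose and 0 fell. Omitting any 1 heart left 3 to 7 that rose (4 without untreated heart 1, 3 without untreated heart 3 and 3 without succinate heart 3). Idh1, the cytosolic and peroxisomal isocitrate dehydrogenase, was at 38.7, 45.2, 38.5 and 35.1 CPM in untreated hearts 1 to 4 and 73.3, 59.1, 70.5 and 64.7 CPM in succinate hearts 1 to 4, and rose by 0.82 ± 0.11. Idh3a, a subunit of the mitochondrial one, rose by 0.46 ± 0.09. Of 17 genes that make, carry or oxidise succinate, 1 rose and 2 fell (17.6% passed, against 13.1% of all tested genes). Oxct1, which spends succinyl-CoA on ketone bodies, rose (0.67 ± 0.09). The monocarboxylate transporter Slc16a1 (-0.54 ± 0.14) and the assembly factor Sdhaf2 (-0.25 ± 0.08) fell. The Sdhaf2 call was lost without untreated heart 1 or 3 or succinate heart 1, 2 or 3 (edgeR adjusted p between 0.0615 and 0.114).

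Breakdown of branched-chain amino acids rose in 10 of 23 genes and fell in 0 (median 0.22). With 1 heart left out at a time, 7 to 10 rose. Ppm1k, a phosphatase that switches on the dehydrogenase of this pathway, was at 40.1, 49.7, 38.6 and 32.4 CPM in untreated hearts 1 to 4 and 79.4, 61.4, 75.8 and 72 CPM in succinate hearts 1 to 4, and rose by 0.90 ± 0.12 without overlap. Bckdhb, a subunit of that dehydrogenase, rose by 0.60 ± 0.13 and the transaminase Bcat2 by 0.41 ± 0.08. Among 40 carriers of the mitochondrial inner membrane (Slc25 family) 8 rose and 0 fell, while the median was 0.06. Leaving out each heart in turn gave 5 to 8 that rose (5 without untreated heart 3 and 5 without heart 4 of both groups). Slc25a22, a glutamate carrier, was at 33, 34.1, 25.2 and 34.2 CPM in untreated hearts 1 to 4 and 79.98, 63.1, 71.6 and 57.6 CPM in succinate hearts 1 to 4, and rose by 1.16 ± 0.20. Slc25a42, a coenzyme A carrier, was at 47.6, 56.6, 40.1 and 45.8 CPM in untreated hearts 1 to 4 and 106, 85, 98.7 and 72.5 CPM in succinate hearts 1 to 4, and rose by 0.98 ± 0.14. Neither overlapped between the groups. Slc25a34, an orphan carrier, rose by 0.74 ± 0.14 and Slc25a27, also called UCP4, by 0.88 ± 0.17.

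Glucose and glycogen genes were divided, with 6 of 33 rising, 3 falling and a median of 0.11. Between the fits that omit a heart, the count that rose was 3 to 7 (3 without untreated heart 3 and 3 without succinate heart 3). For the falls it was 3 to 6 (6 without untreated heart 4). Pfkfb1, an isoform of the enzyme that sets fructose 2,6-bisphosphate, was at 3.26, 7.54, 3.87 and 4.09 CPM in untreated hearts 1 to 4 and 18.4, 11.4, 15.5 and 17.8 CPM in succinate hearts 1 to 4, and rose by 1.80 ± 0.26. Ppp1r3c, which targets protein phosphatase 1 to glycogen, was at 189, 139.6, 205 and 143 CPM in untreated hearts 1 to 4 and 64.7, 67.9, 50.2 and 55.6 CPM in succinate hearts 1 to 4, and fell by 1.46 ± 0.17. Both separated the groups. The transporter Slc2a12 rose by 1.01 ± 0.21 and the glycolytic mutase Pgam1 fell by 0.88 ± 0.17. Genes of NAD synthesis and transport gave 2 rises and 1 fall among 16 (18.8% passed, against 13.1% of all tested genes). The fall was that of Nmrk2, the muscle kinase for nicotinamide riboside, by 3.27 ± 0.69, from 46.6, 50.1, 36 and 10.5 CPM in untreated hearts to 3.17, 4.12, 4.5 and 2.44 CPM in succinate hearts. The mitochondrial NAD kinase Nadk2 and the nicotinic acid enzyme Naprt rose by 0.62 ± 0.14 and 0.53 ± 0.12. Among 15 NAD-consuming enzymes only Bst1, an ectoenzyme, passed and fell by 1.35 ± 0.30.

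Genes known from fasting and from FoxO transcription factors, which insulin holds out of the nucleus, rose: 10 of 26, with 0 falls and a median of 0.45. When single hearts were omitted, 7 to 10 rose. Pik3ip1, an inhibitor of PI3 kinase, was at 37.2, 35.4, 37.5 and 34.6 CPM in untreated hearts 1 to 4 and 76, 78.4, 104 and 78 CPM in succinate hearts 1 to 4, and rose by 1.27 ± 0.17. The atrophy ligase Fbxo32 was at 103, 124, 119 and 103 CPM in untreated hearts 1 to 4 and 243, 193, 302 and 149.7 CPM in succinate hearts 1 to 4, and rose by 1.03 ± 0.17, and the muscle RING-finger ligase Trim63 rose by 0.60 ± 0.12. Pik3ip1, Fbxo32 and Trim63 did not overlap between the groups. The growth-arrest gene Gadd45a rose by 1.09 ± 0.20. Among 24 insulin signalling genes 7 rose and 1 fell. The number that rose was 3 to 8 over the fits without a heart (4 without untreated heart 1, 3 without untreated heart 3, 4 without untreated heart 4, 4 without succinate heart 1 and 3 without succinate heart 3). Tbc1d4, which gates delivery of the glucose transporter GLUT4, was at 76.8, 82.6, 66.3 and 58.3 CPM in untreated hearts 1 to 4 and 142, 133, 169 and 103 CPM in succinate hearts 1 to 4, and rose by 1.0 ± 0.15 without overlap. The receptor gene Igf1r and Foxo3 rose by 0.60 ± 0.13 and 0.49 ± 0.11.

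Muscle Kelch proteins, many of them adaptors of cullin ubiquitin ligases, and other muscle ligases rose in 10 of 28 genes and fell in 2 (median 0.38; Fbxo32 and Trim63 are in this list too). Omitting any 1 heart left 9 to 15 that rose. Klhl33 was at 6.18, 10.8, 6.5 and 8.36 CPM in untreated hearts 1 to 4 and 46, 35.1, 64.1 and 45.5 CPM in succinate hearts 1 to 4, and rose by 2.63 ± 0.26 (edgeR adjusted p = 3.3e-05). Klhl38 was at 16.1, 28.8, 19.1 and 14.7 CPM in untreated hearts 1 to 4 and 54.5, 47.8, 61.5 and 42.6 CPM in succinate hearts 1 to 4, and rose by 1.44 ± 0.24. Klhl21 rose by 0.69 ± 0.11. The 2 that fell were Klhl34 (-1.09 ± 0.28) and Klhl40 (-0.48 ± 0.15), the latter a stabiliser of thin-filament proteins whose call was lost without untreated heart 1, 2 or 3 or succinate heart 2, 3 or 4 (edgeR adjusted p between 0.0553 and 0.0974). Neither Klhl33 nor Klhl38 overlapped between groups, and of 42 proteasome genes 1 rose (Psme4, 0.39 ± 0.11; lost without untreated heart 1 or 4 or succinate heart 1 or 3, edgeR adjusted p between 0.0619 and 0.09). In the circadian clock 4 of 19 genes rose and 2 fell. With 1 heart left out at a time, 2 to 4 rose (2 without untreated heart 1, 2 without untreated heart 4, 2 without succinate heart 1 and 2 without heart 4 of both groups). Cry1, a repressor of the clock, was at 13.3, 13.9, 14.4 and 11.9 CPM in untreated hearts 1 to 4 and 7.25, 7.5, 7.46 and 7.22 CPM in succinate hearts 1 to 4, and fell by 0.81 ± 0.15. Per3, a further member of its negative arm, was at 15.3, 12.7, 15.7 and 10.3 CPM in untreated hearts 1 to 4 and 29.3, 19, 23.6 and 22.8 CPM in succinate hearts 1 to 4, and rose by 0.86 ± 0.19. Both separated the groups, and no source used here gives the time of day of collection.

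Many cytoskeletal genes fell. Of 41 genes of actin filaments and focal adhesions 20 fell and 1 rose (median -0.39), and in 26 of them every succinate heart was below every untreated heart (10.1% of all tested genes did so, and 7.32% the opposite). Leaving out each heart in turn gave 8 to 21 that fell (13 without untreated heart 1, 12 without untreated heart 4, 8 without succinate heart 1, 11 without succinate heart 3 and 12 without heart 4 of both groups). Actb, the ubiquitous beta-actin, was at 522, 531, 473 and 455 CPM in untreated hearts 1 to 4 and 291, 345, 316 and 339 CPM in succinate hearts 1 to 4, and fell by 0.57 ± 0.14. Srf, the transcription factor that serves actin genes, was at 153, 155, 146 and 109.6 CPM in untreated hearts 1 to 4 and 95.4, 96.3, 95.8 and 70.5 CPM in succinate hearts 1 to 4, and fell by 0.61 ± 0.13. The crosslinker Actn4 and the calponin Cnn2 fell by 0.45 ± 0.10 and 0.52 ± 0.11. The member that rose was Itgb1bp2, the muscle integrin-binding protein melusin (0.35 ± 0.09; lost without untreated heart 1 or 3 or succinate heart 3 or 4, edgeR adjusted p between 0.0509 and 0.089). Of 21 tubulins and microtubule motors 9 fell and 0 rose, with a median of -0.62. Between the fits that omit a heart, the count that fell was 8 to 10. Tuba8, an alpha-tubulin of muscle and testis, was at 211, 258, 201 and 118 CPM in untreated hearts 1 to 4 and 87.9, 89.8, 77.6 and 83.2 CPM in succinate hearts 1 to 4, and fell by 1.17 ± 0.19. Tubb6, a beta-tubulin, was at 28, 28.9, 26.3 and 22.8 CPM in untreated hearts 1 to 4 and 12, 15.7, 10.3 and 11.6 CPM in succinate hearts 1 to 4, and fell by 1.05 ± 0.18. Tuba1c and Tuba1a fell by 0.92 ± 0.15 and 0.77 ± 0.15; tubulin paralogs are similar enough that reads could be split. Actb, Srf, Tuba8 and Tubb6 did not overlap between the groups. Actin and tubulin genes are expressed in many cell types of the heart.

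**Figure D4:**
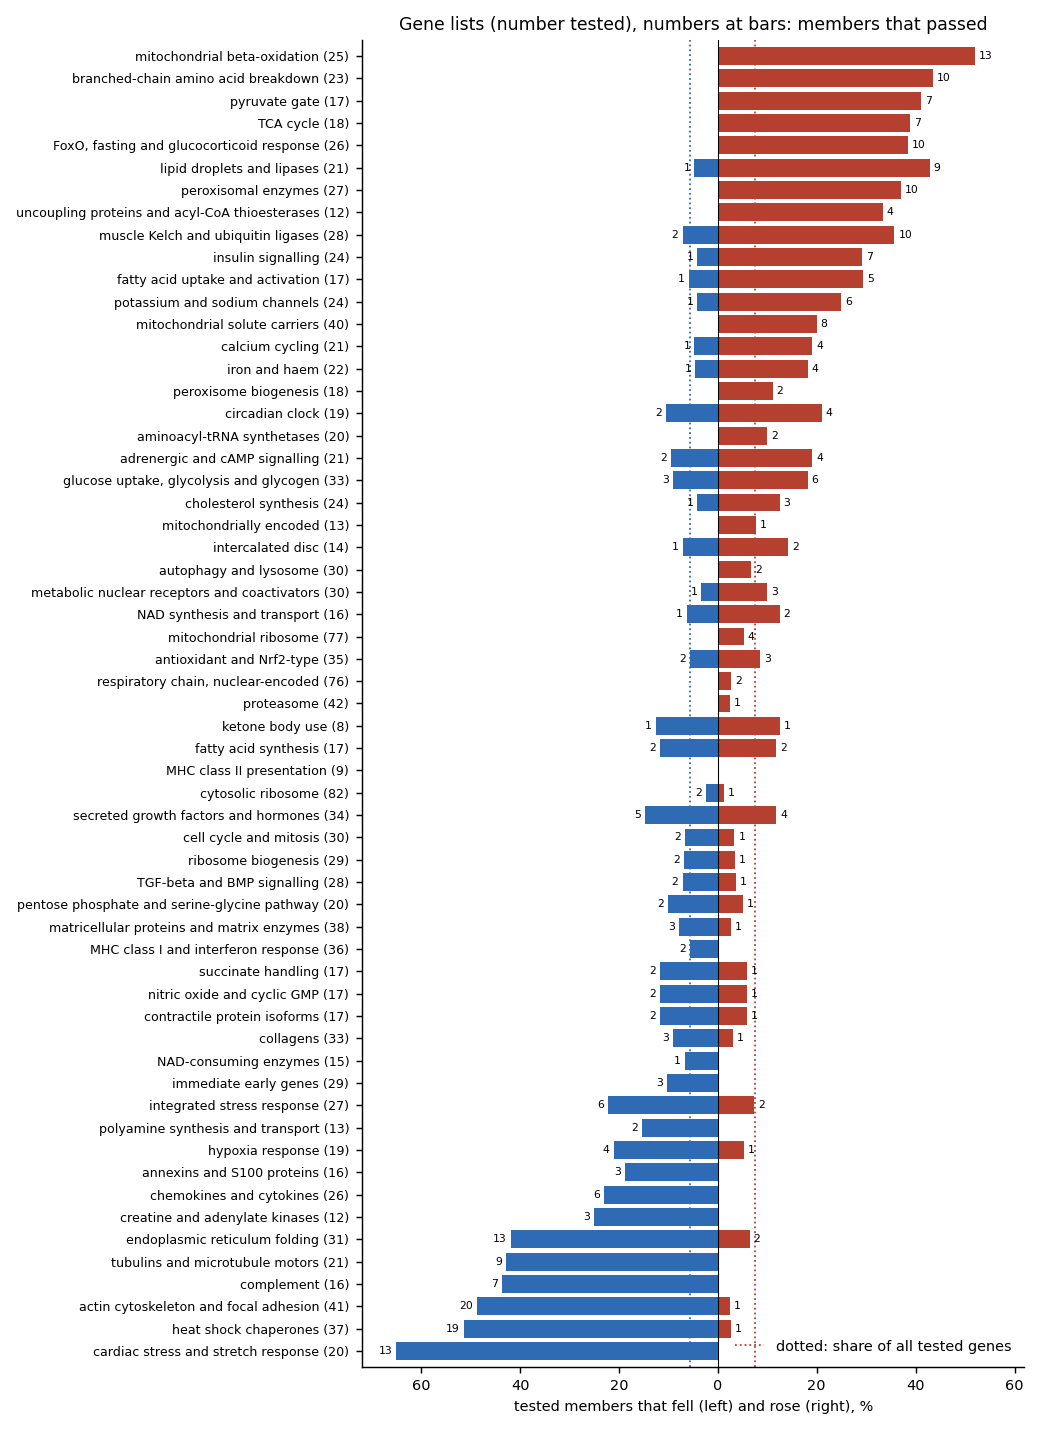
Percent of tested members that fell (blue, left) and rose (red, right) in each of the 59 pathway lists, with the number of members at the bar and the number tested in parentheses; dotted lines mark the shares over all tested genes (5.64% fell, 7.48% rose). Cardiac stress, heat shock, actin, complement and tubulin genes are at the bottom, and beta-oxidation, branched-chain amino acid and pyruvate genes at the top.

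Some genes of excitation rose. Of 24 potassium and sodium channel genes 6 rose and 1 fell (median 0.26). When single hearts were omitted, 1 to 7 rose (2 without untreated heart 1, 2 without untreated heart 3, 2 without untreated heart 4, 2 without succinate heart 1, 1 without succinate heart 3 and 3 without heart 4 of both groups). Scn4a, the skeletal-type sodium channel, was at 19.3, 28.4, 12.3 and 15.1 CPM in untreated hearts 1 to 4 and 55.9, 41.3, 44 and 25.2 CPM in succinate hearts 1 to 4, with succinate heart 4 inside the untreated range, and rose by 1.20 ± 0.28. Kcnj2, the channel of the resting inward rectifier current, was at 9.23, 18.6, 9.36 and 7.4 CPM in untreated hearts 1 to 4 and 37.1, 20.9, 27.7 and 20.3 CPM in succinate hearts 1 to 4, and rose by 1.31 ± 0.36 without overlap, a call lost without untreated heart 1, 3 or 4 or succinate heart 1 or 3 (edgeR adjusted p between 0.0677 and 0.102). Kcnd2, a subunit of the transient outward current, rose by 0.81 ± 0.23 and lost its call without untreated heart 1 or 4 or succinate heart 3 or 4 (edgeR adjusted p between 0.0504 and 0.0797). Of 21 calcium cycling genes 4 rose and 1 fell. The number that rose was 0 to 4 over the fits without a heart (0 without untreated heart 1, 1 without untreated heart 3, 1 without untreated heart 4, 0 without succinate heart 1, 2 without succinate heart 2, 0 without succinate heart 3 and 2 without heart 4 of both groups). Ryr2, the calcium release channel, was at 688, 924, 715 and 494 CPM in untreated hearts 1 to 4 and 1297, 994, 1358 and 839 CPM in succinate hearts 1 to 4, and rose by 0.72 ± 0.20, a call lost without untreated heart 1, 3 or 4 or succinate heart 1 or 3 (edgeR adjusted p between 0.0592 and 0.0809). Atp2a2, the calcium pump SERCA2, was at 8088, 9155, 7743 and 6219 CPM in untreated hearts 1 to 4 and 10655, 10731, 11504 and 8569 CPM in succinate hearts 1 to 4, and rose by 0.46 ± 0.13, a call lost without untreated heart 1, 3 or 4 or succinate heart 1, 2 or 3 (edgeR adjusted p between 0.0559 and 0.0892). Jph2, which ties the transverse tubule to the reticulum, fell by 0.45 ± 0.14, a call lost without untreated heart 1, 2 or 3 or succinate heart 1, 3 or 4 (edgeR adjusted p between 0.0551 and 0.104).

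The alpha-1 adrenergic receptors, which respond to noradrenaline in ventricular muscle, rose as a pair. Adra1a was at 36, 37.1, 30.2 and 25.8 CPM in untreated hearts 1 to 4 and 77.3, 60.3, 75.2 and 50.04 CPM in succinate hearts 1 to 4, and rose by 1.08 ± 0.18 (edgeR adjusted p = 0.00124). Adra1b was at 18.2, 29.3, 15 and 16.9 CPM in untreated hearts 1 to 4 and 46.1, 40.4, 34.2 and 36.5 CPM in succinate hearts 1 to 4, and rose by 1.04 ± 0.18. Neither overlapped between the groups. In the adrenergic and cyclic AMP list, 4 of 21 genes rose and 2 fell, the falls including the receptor kinase Grk2 (-0.28 ± 0.06). Omitting any 1 heart left 2 to 5 that rose (2 without untreated heart 1, 2 without untreated heart 3, 2 without untreated heart 4 and 2 without succinate heart 1). In the nitric oxide and cyclic GMP list, the pathway that L-NAME inhibits in both groups, 1 of 17 rose and 2 fell. The share that passed was 17.6%, against 13.1% of all tested genes, and the calls describe single genes. Nos3, the endothelial nitric oxide synthase, was at 65.9, 57.3, 60.3 and 79.6 CPM in untreated hearts 1 to 4 and 44.8, 55.6, 47.9 and 39.6 CPM in succinate hearts 1 to 4, and fell by 0.44 ± 0.14, a call lost without untreated heart 1, 3 or 4 or succinate heart 1, 3 or 4 (edgeR adjusted p between 0.0515 and 0.126). The arginine-making Ass1 fell by 0.83 ± 0.24 (lost without untreated heart 3 or 4 or succinate heart 1, 2 or 3, edgeR adjusted p between 0.0519 and 0.105), and the natriuretic peptide receptor Npr2 rose by 0.27 ± 0.09 (lost without untreated heart 1, 2 or 3 or succinate heart 1, 2 or 3, edgeR adjusted p between 0.0689 and 0.178). At the intercalated disc, which couples cardiomyocytes end to end, the desmosomal cadherin Dsg2 was at 52.5, 61.5, 51.3 and 43.2 CPM in untreated hearts 1 to 4 and 118, 98.2, 108 and 75.8 CPM in succinate hearts 1 to 4, and rose by 0.99 ± 0.18 without overlap, and the plakophilin Pkp2 rose by 0.40 ± 0.09; Xirp2 was the 1 of 14 that fell.

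Oxygen and iron genes were mixed. In the hypoxia response 4 of 19 genes fell and 1 rose. With 1 heart left out at a time, 3 to 6 fell. P4ha1, a collagen prolyl hydroxylase, was at 125, 56.8, 107 and 76.5 CPM in untreated hearts 1 to 4 and 28.4, 36.8, 30.4 and 28.5 CPM in succinate hearts 1 to 4, and fell by 1.51 ± 0.25. Egln3, an oxygen sensor induced by HIF, was at 73.2, 66.9, 65.5 and 54 CPM in untreated hearts 1 to 4 and 27.1, 37.5, 31.1 and 27.6 CPM in succinate hearts 1 to 4, and fell by 1.03 ± 0.12. Hif3a, an inhibitory HIF subunit that glucocorticoids also induce, rose from 0.913, 0.599, 1 and 1.09 CPM in untreated hearts to 2.14, 2.4, 2.19 and 3.88 CPM in succinate hearts (1.61 ± 0.37). All 3 separated the groups. Slc40a1, ferroportin, the exporter of iron, was at 12.8, 16.5, 12.8 and 18.3 CPM in untreated hearts 1 to 4 and 42.9, 48.6, 49 and 42.6 CPM in succinate hearts 1 to 4, and rose by 1.65 ± 0.24 without overlap, and Alas1, which starts haem synthesis, fell by 0.62 ± 0.18 (lost without untreated heart 1, 2 or 3 or succinate heart 1, 2, 3 or 4, edgeR adjusted p between 0.054 and 0.0642). The 6 erythroid markers, of which 5 were tested and 0 passed, summed to 66.8 to 276 CPM in untreated and 178 to 279 CPM in succinate hearts. Their part in the Slc40a1 result was not tested.

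Some complement and macrophage genes fell. Complement, the blood-borne cascade that tags cells for removal, had 7 of 16 genes falling and 0 rising (median -0.50). Leaving out each heart in turn gave 0 to 9 that fell (0 without untreated heart 3, 2 without untreated heart 4, 0 without succinate heart 1 and 0 without succinate heart 3). C1qb, a chain of the first component made by macrophages, was at 56.5, 65.8, 88.2 and 77.9 CPM in untreated hearts 1 to 4 and 26.3, 46.1, 40.4 and 56.2 CPM in succinate hearts 1 to 4, and fell by 0.72 ± 0.20, a call lost without untreated heart 3 or 4 or succinate heart 1 or 3 (edgeR adjusted p between 0.064 and 0.0809). C4b was at 44.7, 44.6, 66.7 and 34.7 CPM in untreated hearts 1 to 4 and 25.7, 28.5, 27.3 and 26.2 CPM in succinate hearts 1 to 4, and fell by 0.77 ± 0.20, a call lost without untreated heart 3 or succinate heart 1 or 3 (edgeR adjusted p between 0.0503 and 0.0687). The 15 macrophage markers, 3 of them shared with complement (C1qa, C1qb and C1qc), summed to 532 to 757 CPM in untreated and 304 to 543 CPM in succinate hearts, and 9 fell (median -0.68); whether fewer macrophages or less RNA in each lay behind the complement values cannot be told apart. Between the fits that omit a heart, the count that fell was 3 to 10 (3 without untreated heart 3, 5 without untreated heart 4, 3 without succinate heart 1 and 4 without succinate heart 3). Lyve1, of resident macrophages and lymphatic vessels, was at 23.3, 25.4, 43 and 24.5 CPM in untreated hearts 1 to 4 and 12.4, 16.9, 10.3 and 12.6 CPM in succinate hearts 1 to 4, and fell by 1.11 ± 0.19. Of 26 chemokines and cytokines 6 fell and 0 rose. When single hearts were omitted, 4 to 6 fell. Ccl2, which draws monocytes, was at 4.98, 2.21, 3.8 and 2.73 CPM in untreated hearts 1 to 4 and 0.815, 1.18, 0.547 and 1.26 CPM in succinate hearts 1 to 4, and fell by 1.80 ± 0.40. C1qb, C4b, Lyve1 and Ccl2 did not overlap between the groups. Ccl7, a neighbour of Ccl2 with a like role, fell by 1.86 ± 0.35. No member of the monocyte (7 tested), T and natural killer cell (9), B cell (5) or MHC class II (9) lists passed. Of the 4 neutrophil markers tested, 2 fell (0 to 2 with 1 heart left out: 1 without untreated heart 3, 1 without untreated heart 4, 0 without succinate heart 1, 0 without succinate heart 3 and 0 without heart 4 of both groups). S100a9 fell by 1.22 ± 0.31, from 2.32, 2.11, 2.18 and 2.7 CPM in untreated hearts to 0.785, 1.55, 0.515 and 1.01 CPM in succinate hearts. S100a8 fell by 1.58 ± 0.45, from 0.702, 1.23, 1.42 and 1.5 to 0.272, 0.574, 0.322 and 0.395 CPM. Both encode calcium-binding proteins abundant in neutrophils, and neither overlapped between the groups.

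Matrix genes passed at a share near that of all tested genes (13.1%). It was 12.1% for collagens and 10.5% for matricellular proteins and matrix enzymes. Changes were below 0 in 27 of 33 collagens and in 29 of 38 matricellular proteins and matrix enzymes, most of which did not pass. Among 33 collagens 3 fell and 1 rose (median -0.29); 1 to 4 fell with 1 heart left out (1 without untreated heart 1, 1 without untreated heart 3, 1 without succinate heart 1, 1 without succinate heart 3 and 1 without heart 4 of both groups). Col22a1, a collagen of tissue junctions, was at 0.491, 0.536, 0.622 and 0.614 CPM in untreated hearts 1 to 4 and 0.242, 0.27, 0.193 and 0.18 CPM in succinate hearts 1 to 4, and fell by 1.29 ± 0.33, a call that did not pass with no count filter, on either log2 FPKM scale or without heart 4 of both groups (-0.05 on the log2(FPKM + 1) scale). Col15a1 and Col6a3 fell by 0.75 ± 0.20 (lost without untreated heart 1 or 3 or succinate heart 1 or 3, edgeR adjusted p between 0.052 and 0.0792) and 0.79 ± 0.24 (lost without untreated heart 1 or 3 or succinate heart 1, 3 or 4, edgeR adjusted p between 0.0615 and 0.12), and Col4a5, of basement membranes, rose by 0.40 ± 0.13 (lost without untreated heart 2, 3 or 4 or succinate heart 1, 2 or 3, edgeR adjusted p between 0.0542 and 0.138). Among 38 matricellular proteins and matrix enzymes 3 fell (1 to 6 with 1 heart left out: 6 without untreated heart 2, 1 without untreated heart 3, 5 without untreated heart 4 and 1 without succinate heart 1), of which Ccn3 fell by 0.89 ± 0.22, a call lost without heart 4 of both groups, and 1 rose, the protease Adamts5 (0.66 ± 0.20; lost without untreated heart 1, 3 or 4 or succinate heart 1, 2, 3 or 4, edgeR adjusted p between 0.0533 and 0.118). Fibroblast markers summed to 3121 to 3964 and 2682 to 3711 CPM and endothelial markers to 1898 to 2257 and 1649 to 2046 CPM in untreated and succinate hearts, with 1 of 12 falling in each. Of the secreted factors, 4 of 34 rose and 5 fell. The number that rose was 2 to 5 over the fits without a heart (2 without untreated heart 1, 2 without untreated heart 3, 2 without succinate heart 1 and 2 without succinate heart 3). Omitting any 1 heart left 2 to 5 that fell (2 without untreated heart 1, 3 without untreated heart 4, 3 without succinate heart 1 and 2 without heart 4 of both groups). Angpt1, a ligand that quiets endothelium, was at 11.7, 15.5, 9.29 and 4.91 CPM in untreated hearts 1 to 4 and 17.8, 22.2, 18.1 and 19.5 CPM in succinate hearts 1 to 4, and rose by 0.96 ± 0.22 without overlap, and Fgf9 rose by 0.88 ± 0.16.

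Several large gene families gave few calls with all hearts in the fit, and the counts moved when hearts were left out. Of 76 nuclear genes of the respiratory chain 2 rose (0 to 4 with 1 heart left out: 0 without untreated heart 1, 1 without untreated heart 2, 0 without untreated heart 3, 4 without untreated heart 4, 0 without succinate heart 1, 0 without succinate heart 3, 1 without succinate heart 4 and 0 without heart 4 of both groups). Of 77 mitochondrial ribosome genes 4 rose (0 to 5 with 1 heart left out: 1 without untreated heart 1, 2 without untreated heart 2, 0 without untreated heart 3, 2 without succinate heart 1, 0 without succinate heart 2, 1 without succinate heart 3, 0 without succinate heart 4 and 1 without heart 4 of both groups). Of 13 mitochondrially encoded genes 1 rose, ND6 (0.61 ± 0.15; lost without succinate heart 1, edgeR adjusted p = 0.0557). In these 3 families none fell with all hearts in the fit. Cytosolic ribosome genes had a median of -0.22, with 80 of 82 changes below 0 but 2 falls by the test. Their mean log2 level, relative to the untreated mean, was -0.24, -0.03, -0.06 and 0.33 in untreated hearts 1 to 4 and -0.58, -0.26, -0.53 and 0.34 in succinate hearts 1 to 4, so heart 4 was highest in each group. Without succinate heart 4 alone 55 of the 82 fell, and without heart 4 of both groups 24 did. The count stayed at 2 with any other single heart left out. Rpl3, a core ribosomal protein, was at 320.3, 379, 338 and 318 CPM in untreated hearts 1 to 4 and 151, 204, 152 and 254 CPM in succinate hearts 1 to 4, and fell by 0.78 ± 0.15. Rpl3l, its counterpart restricted to striated muscle, was at 129.9, 199.7, 149 and 213 CPM in untreated hearts 1 to 4 and 234, 281, 252 and 259.7 CPM in succinate hearts 1 to 4, and rose by 0.62 ± 0.19, a call lost without untreated heart 1 or 3 or succinate heart 1, 2, 3 or 4 (edgeR adjusted p between 0.0711 and 0.137). Neither of the pair overlapped between the groups, and they moved in opposite directions.

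**Figure D5:**
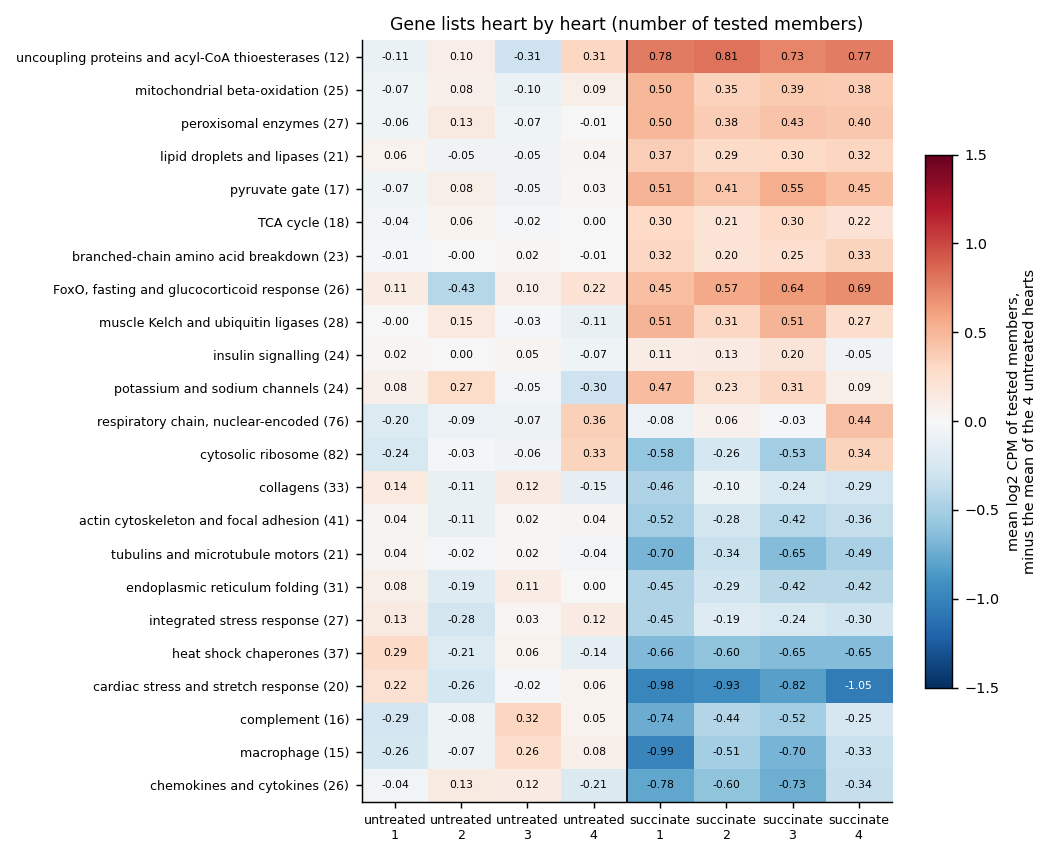
Mean log2 CPM of the tested members of 23 lists in each floxed heart, minus the mean of the 4 untreated hearts, with the value printed in each cell. For the respiratory chain and cytosolic ribosome, heart 4 is highest in each group, while the cardiac stress, heat shock and tubulin lists are below every untreated heart in all 4 succinate hearts.

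Whether these changes differed with the Myh6Cre genotype was tested with the interaction term over all 16 hearts. By edgeR 0 of 14607 genes passed (0%), 709 had an unadjusted p under 0.05, and the smallest adjusted p was 0.930; DESeq2 called 4. The change in Cre hearts, fitted in the same model on separate control hearts, is set beside the floxed value for members that were chosen by their floxed change. The fold change of Klhl33 was 2.63 ± 0.26 in floxed and 1.59 ± 0.25 in Cre hearts. The fold change of Slc40a1 was 1.65 ± 0.24 in floxed and 0.72 ± 0.23 in Cre hearts. The fold change of Adra1a was 1.08 ± 0.18 in floxed and 0.57 ± 0.18 in Cre hearts. The fold change of Tuba8 was -1.17 ± 0.19 in floxed and -0.65 ± 0.19 in Cre hearts. The fold change of Hspa8 was -0.76 ± 0.12 in floxed and -0.43 ± 0.12 in Cre hearts. The fold change of Egln3 was -1.03 ± 0.12 in floxed and -0.73 ± 0.12 in Cre hearts. All 6 values were nearer 0 in Cre hearts, as the choice of members by the floxed contrast favours. Of the 1917 genes that passed in floxed hearts, 1845 had the same sign in Cre hearts (1054 of the 1093 that rose and 791 of the 824 that fell), which was not tested. By the same edgeR threshold, 113 of the 1917 also passed in Cre hearts. A p that misses the threshold does not show that the genotypes respond alike.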

How the data were processed

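RNA-seq of 16 mouse hearts (4 groups of 4) was analysed. The authors deposited raw counts per gene, whole numbers, beside FPKM values; per the submitters' processing notes the tools were fastp, HISAT2, HTSeq, DESeq2 and R 3.2.0 with the GRCm39 build, without their roles. The FPKM deposited by the authors equal the counts scaled by library total and 1 gene length. The sources used here do not say whether counting used strand. All per-sample columns were used. Groups came from the labels.

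Counts were tested in edgeR 4.0.16 (R 4.3.3): filterByExpr with a minimum count of 10, TMM scaling, 1 mean per group over all 16 samples, robust quasi-likelihood F-test, Benjamini-Hochberg threshold 0.05. SE is the absolute log2 fold change over the square root of F. CPM is the count scaled to the library total. Sucnr1 was tested with an exact permutation test. Alternatives used DESeq2 1.42.0, limma 3.58.1, log2(FPKM + 1) and log2(FPKM + 0.1), other filters and scalings, a replicate block and each heart left out. The fit was tested on simulated data. Promoter sequences come from RefSeq (GRCm38.p6), matched by gene identifier.

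Members and gene lists were chosen with earlier results of these data known. Named genes are those passing genes with mean log2 CPM of at least 1 that had the 15 largest increases and the 15 largest decreases, up to 4 members per list by smallest p (2 where none passed), the 10 of smallest p, the 10 of highest CPM that passed, and Sucnr1. Angptl4, C1qa, Dnaja1, Ern1, Etfa, G0s2, Hspa9, Hspb1, Hsph1, Itgb1bp2, Kcnj2, Klhl34, Klhl40, Mlycd and Pycr1 fall outside this rule and were chosen after their values were seen. Some genes that the rule names are not reported here.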

Additional observations from a re-analysis of the deposited data

Results flagged for a closer look

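Apart from Acta1, each named gene and each library measure was checked for a single heart far from the other 3 of its floxed group. The check was Dixon's ratio of gap to range at its critical value for 4 values. Of 344 groups of 4 hearts, 17 held such a heart, where chance gives about 1 in 20 (17.2). In untreated heart 2, Ddit3 was lower, at 20.1 CPM against 25.1 to 25.5 in the other hearts of its group. Idh3a stood higher there, at 481 CPM against 382 to 391. That heart also had the highest number of genes with at least 1 count, 18245 against 18067 to 18087. In untreated heart 3, Lyve1 was higher, at 43 CPM against 23.3 to 25.4 in the other hearts of its group. Slc25a22 stood lower there, at 25.2 CPM against 33 to 34.2. In untreated heart 4, Acad11 was lower, at 114 CPM against 124 in the other hearts of its group. Angptl4 stood higher there, at 48.5 CPM against 6.05 to 9.62. Lipe stood higher there, at 85.6 CPM against 49.8 to 54.2. Myh7 stood lower there, at 1446 CPM against 5169 to 5706. Thrb stood lower there, at 8.91 CPM against 12.6 to 13.3. In succinate heart 1, Pdhb was lower, at 538 CPM against 572 to 574 in the other hearts of its group. In succinate heart 2, Odc1 was higher, at 75 CPM against 52.8 to 54.8 in the other hearts of its group. In succinate heart 3, Acot3 was lower, at 1.74 CPM against 2.8 to 2.93 in the other hearts of its group. Pik3ip1 stood higher there, at 104 CPM against 76 to 78.4. Trmt5 stood higher there, at 49.3 CPM against 39.2 to 40.6. In succinate heart 4, Hif3a was higher, at 3.88 CPM against 2.14 to 2.4 in the other hearts of its group. Srf stood lower there, at 70.5 CPM against 95.4 to 96.3.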

How the results depend on the processing

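The count of 1917 called genes stayed within 1.5 times under DESeq2 (2540), relative log expression scaling (1895), leaving out genes of the mitochondrial genome (1901), no count filter (1455), a minimum count of 50 (1939), a fit on the 8 floxed libraries (1636), log2(FPKM + 1) (1643) and log2(FPKM + 0.1) (1708). It also did so with library totals alone (1689) and without heart 4 of both floxed groups (1581), settings added after seeing the data. Limma voom with sample quality weights called 2925 genes, of which 1645 rose and 1280 fell, and a mean FPKM of at least 1 left 693 that rose; the cause was not tested. With 1 heart left out, the total lay between 1018 (without succinate heart 1) and 1989 (without succinate heart 4), the genes that rose between 590 and 1094, and those that fell between 400 and 931. The total was 1150 and 1079 without untreated hearts 1 and 3, and 1071 without succinate heart 3. Under all 22 alternatives, no gene called by the reported fit and tested again changed sign. The genotype interaction, at 0 genes in edgeR, gave 4 in DESeq2. The Sucnr1 difference ranged from 0.0241 to 0.0992 CPM with 1 heart left out, where 0.0571 is the smallest p the exact test can give. Among 75 gene lists, the median changed sign in at least 1 alternative in 19, of which 16 had a median within 0.1 of 0; these include the nuclear-encoded respiratory chain, the mitochondrial solute carriers and the hypoxia response.

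Replicate numbers were the same in the 2 groups, but hearts with the same number did not all deviate together, with correlations of 0.095, -0.076, -0.011 and 0.177, and only heart 4 correlated best with its own number. The labels do not say what a shared number stands for. Heart 4 of each group stood apart on the second principal component (-32.6 untreated, -28.2 succinate). Whether the number marks a batch or a pairing was not tested. With the replicate number as a block, 2025 genes passed in the 8 floxed libraries (1636 without the block). In all 16 libraries 1903 passed (1917 without it), and the interaction gave 0 genes. Named genes that did not pass in 1 or both block fits are Atf3, Col22a1, Col6a3, Gpt2, Hspa1b, Hsph1, Kcnd2, Kcnj2, Nos3, Npr2, Pdk4 and Sdhaf2.

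Depth limits low genes: 3 counts correspond to 0.0906 to 0.108 CPM in the floxed libraries.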

Other observations

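Smaller groups of genes also held calls in the comparison of floxed hearts given succinate with untreated floxed hearts, tested by edgeR as above. Over all tested genes 7.48% rose and 5.64% fell, 13.1% together. The share that passed was 6.67% for autophagy and lysosomes, 10% for the cell cycle and 13.3% for nuclear receptors. It was 15% for pentose phosphate and serine-glycine genes, 15.4% for polyamines and 16.7% for cholesterol synthesis. Annexins and S100 proteins had 18.8%, creatine and adenylate kinases 25%. The calls describe single genes. Of 24 tested genes of cholesterol synthesis, 3 rose and 1 fell (0 to 2 with 1 heart left out). Fdft1, which encodes squalene synthase, measured 26.4, 34.9, 29.5 and 39.5 CPM in untreated hearts 1 to 4 and 54.7, 66.4, 64.1 and 64.1 CPM in succinate hearts 1 to 4. The groups did not overlap and Fdft1 rose by 0.98 ± 0.16. Hsd17b7, an enzyme of the later sterol steps, rose by 0.94 ± 0.22. Insig1, a sterol sensor protein, rose by 0.62 ± 0.15, a call lost without succinate heart 3 (edgeR adjusted p = 0.0524). Of 30 tested genes of autophagy and lysosomes, 2 rose (1 to 3 with 1 heart left out) and 0 fell. Ulk1, a kinase that starts autophagy, measured 70.7, 67.8, 68 and 61.8 CPM in untreated hearts 1 to 4 and 109, 98.2, 138 and 77.5 CPM in succinate hearts 1 to 4 and rose by 0.70 ± 0.14. Gabarapl1, a protein of the autophagosome membrane, rose by 0.64 ± 0.15, a call lost without succinate heart 3 (edgeR adjusted p = 0.0517). Of 30 tested metabolic nuclear receptors and coactivators, 3 rose and 1 fell (0 to 3 with 1 heart left out). Thrb, a thyroid hormone receptor, rose by 0.68 ± 0.13 and Nr1d2, a repressor of the circadian clock, by 0.53 ± 0.12.

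Of 13 tested genes of polyamine synthesis and transport, 0 rose and 2 fell (1 to 3 with 1 heart left out). Odc1, which encodes the rate-limiting enzyme of polyamine synthesis, measured 85.4, 97.2, 85.7 and 88.5 CPM in untreated hearts 1 to 4 and 54.8, 75, 52.8 and 53.4 CPM in succinate hearts 1 to 4 and fell by 0.55 ± 0.10. Azin1, which protects that enzyme from its inhibitor, fell by 0.45 ± 0.14, a call lost without untreated heart 1 or 3 or succinate heart 1, 3 or 4 (edgeR adjusted p between 0.0517 and 0.11). Of 12 tested genes of the creatine and adenylate kinases, 0 rose and 3 fell (1 to 3 with 1 heart left out: 1 without untreated heart 1). Slc6a8, the creatine transporter, fell by 0.45 ± 0.12, a call lost without untreated heart 1 (edgeR adjusted p = 0.05). Ak4, an adenylate kinase of the mitochondrial matrix, fell by 0.46 ± 0.11. Of 16 tested annexins and S100 proteins, 0 rose and 3 fell (0 to 5 with 1 heart left out: 0 without succinate heart 1, 0 without succinate heart 3 and 5 without succinate heart 4). Anxa2, a membrane-binding annexin, measured 84.3, 82.6, 100.1 and 140.2 CPM in untreated hearts 1 to 4 and 41.9, 63.4, 51.8 and 64.9 CPM in succinate hearts 1 to 4 and fell by 0.83 ± 0.21, a call lost without succinate heart 1 or 3 (edgeR adjusted p between 0.0502 and 0.0576). Of 20 tested genes of the pentose phosphate and serine-glycine pathways, 1 rose and 2 fell (1 to 3 with 1 heart left out). Shmt1, the cytosolic enzyme that joins serine and folate metabolism, rose by 0.67 ± 0.12. Mthfd1l, a mitochondrial folate enzyme, was low throughout, at 1.51, 1.36, 0.864 and 0.751 CPM in untreated hearts 1 to 4 and 0.423, 0.237, 0.386 and 0.251 CPM in succinate hearts 1 to 4, and fell by 1.72 ± 0.40. Of 30 tested cell cycle genes, 1 rose (1 to 3 with 1 heart left out) and 2 fell (1 to 3 with 1 heart left out). Cdkn1b, an inhibitor of cyclin-dependent kinases, rose by 0.57 ± 0.11.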
